A study of Homo sapiens with 4 samples.

Results

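Small nucleolar RNA host genes were described here in BEAS-2B cells exposed to gamma rays. The members were 9 noncoding host genes, GAS5, SNHG1, SNHG5, SNHG6, SNHG7, SNHG8, SNHG12, SNHG15 and SNHG16, matched by gene symbol among the 36601 genes listed for each library. This line was derived from the human bronchial epithelium and immortalized. The 4 libraries were an unirradiated control and cells given 10 mGy, 100 mGy or 1 Gy of Cs-137 gamma rays. The dose rate was 100 mGy per min, and the irradiated cells were processed 30 min after irradiation. The handling time of the control is not given. The question was how single cells respond at low dose. Each dose had 1 library, so no test between doses was possible, and dose and library cannot be told apart.

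A small nucleolar RNA (snoRNA) guides the chemical modification of ribosomal RNA. C/D box snoRNAs direct methylation of the ribose and H/ACA box snoRNAs direct pseudouridylation. Most human snoRNAs are cut out of introns. In the host genes described here the intron carries the cargo, while the spliced RNA codes for no known long protein. That spliced RNA is exported, engaged by ribosomes at short reading frames and degraded by nonsense-mediated decay, the pathway that removes RNAs with an early stop codon. Many hosts begin transcription at a C followed by a run of pyrimidines (a TOP start), as do the mRNAs of ribosomal proteins and translation factors. GAS5, growth arrest-specific 5, was named for its rise in arrested cells.

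RefSeq places 11 snoRNA genes inside GAS5, 9 inside SNHG1, 2 inside SNHG5, 1 inside SNHG6, 2 inside SNHG7, 1 inside SNHG8, 4 inside SNHG12, 1 inside SNHG15 and 3 inside SNHG16. The cargo was of the C/D class in SNHG5, SNHG6 and SNHG16, and of the H/ACA class in SNHG7, SNHG8 and SNHG15. GAS5 and SNHG12 held both classes, GAS5 with SNORA103 beside 10 C/D genes and SNHG12 with SNORD99 beside 3 H/ACA genes. Of the 9 in SNHG1, 8 have C/D names. One example of each class shows what the introns carry. Both sequences are GENCODE 29 transcripts of build GRCh38. In SNORD27, from an intron of SNHG1, capitals mark the C box (TGATGA) and the D box (CTGA). In SNORA24, from an intron of SNHG8, capitals mark the ACA box, 3 bases before the end.
SNORD27: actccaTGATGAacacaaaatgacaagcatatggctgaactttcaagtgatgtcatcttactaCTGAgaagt
SNORA24: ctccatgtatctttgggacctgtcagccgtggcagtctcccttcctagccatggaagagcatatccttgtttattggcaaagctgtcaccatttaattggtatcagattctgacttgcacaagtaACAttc
The feature table of the libraries lists the hosts, and the values below are of host RNA, not of snoRNA.

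The starts of the hosts are shown because host genes of this kind are known for TOP starts. The RefSeq promoter table (GRCh38.p14) held 7 of the 9 members, without SNHG6 and SNHG15. The windows below cover 20 bases before and 30 bases after the annotated start, 5′ to 3′ on the gene's strand. Capitals mark the longest run of a C followed by at least 4 pyrimidines, searched on the gene's strand only, counted from within 10 bases of the start. In SNHG7 the pyrimidines begin further upstream, in lower case, so the capitals are only the tail of that run.
SNHG5, chr6:85678704-85678753, minus strand: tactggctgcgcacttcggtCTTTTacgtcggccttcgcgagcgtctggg
SNHG7, chr9:136728155-136728204, minus strand: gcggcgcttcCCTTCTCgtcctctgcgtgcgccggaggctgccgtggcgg
SNHG8, chr4:118278742-118278791, plus strand: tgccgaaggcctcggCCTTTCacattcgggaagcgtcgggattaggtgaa
SNHG12, chr1:28581844-28581893, minus strand: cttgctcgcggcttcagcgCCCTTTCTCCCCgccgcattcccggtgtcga
SNHG16, chr17:76557744-76557793, plus strand: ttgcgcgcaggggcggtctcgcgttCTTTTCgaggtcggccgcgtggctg
Such a run, counted from within 10 bases of the start, was present in 5 of the 7 member windows. It was present in 33.5% of the 35116 promoters of the table. Both counts take in tails of runs that begin further upstream, as in SNHG7. In the window of SNHG5 the run began at the annotated start itself, and in the others before or after it. SNHG1 and GAS5 had no run that began within 10 bases of the start, though the window of SNHG1 held a run further upstream. For GAS5 the RefSeq start lies upstream of the GENCODE gene, and 6 of its 29 GENCODE 29 transcripts begin with a C and at least 4 pyrimidines. The same holds for 1 of 25 transcripts of SNHG1, 3 of 23 of SNHG5, 3 of 5 of SNHG6, 1 of 5 of SNHG8, 4 of 17 of SNHG12 and 2 of 8 of SNHG16. It holds for 0 of 4 of SNHG7 and 0 of 10 of SNHG15. Most annotated transcripts of 8 of the 9 members thus begin otherwise. The first 30 bases of those 6 GAS5 transcripts are set beside those of the 2 SNHG16 transcripts that begin the same way, with the pyrimidine run in capitals.
GAS5 transcript start: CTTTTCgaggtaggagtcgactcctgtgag
SNHG16 transcript start: CTTTTCgaggtcggccgcgtggctggaaga
The first 11 bases were identical between these starts. The presence of the run is a description of the window, and no binding or use of a start was measured.

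The libraries held 211752280 to 285806026 unique molecular identifiers (UMIs, each standing for 1 captured RNA molecule) in 11111 to 21514 cell barcodes. Barcodes whose UMI count stayed below the library median when multiplied by 3, called low-UMI barcodes, took a share of 19.6% in the unirradiated library and 41.4% in the 10 mGy library. Pairs of libraries shared 76 to 134 barcode sequences. The epithelial keratin KRT8 was at 245 to 273 counts per 1000000 UMIs (CPM) in the 4 libraries and KRT18 at 219 to 306 CPM, whereas the epithelial markers KRT19 and EPCAM were at no more than 2.41 CPM. KRT5 and CDH1 were near 0. The 8 markers of leukocytes, endothelium, red cells and hepatocytes were each at or below 0.176 CPM, with CD3E at 0 in every library. Median mitochondrially encoded shares per barcode were 4.17% and 4.29% at 10 and 100 mGy, against 5.75% in the control and 5.41% at 1 Gy. Ribosomal protein genes took 20.1% and 21.9% of UMIs at the low doses, 13.9% in the control and 14.0% at 1 Gy. The part of these differences in the results below was not tested.

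All 9 members were measured in every library, and together they gave 191168 to 266517 UMIs per library. Levels are pooled CPM, the summed UMIs of a gene over all UMIs of the library, with exact 95% counting intervals. Intervals cover counting error only, and they are narrow because of the depth, so the missing replicates and not the counts limit the precision. The summed level was 898.3 CPM in unirradiated cells and 932.5, 985.8 and 955.0 CPM at the 3 rising doses. Scaled by all UMIs, the sum thus stayed within a ratio of 1.04 to 1.10 of the control at every dose, while its members moved apart. The median gene was at a ratio of 0.810 at 10 mGy and 0.766 at 100 mGy, so the sum stood above it at both low doses. SNHG6 made up 20.2% of member UMIs in the control and 29.1% at 10 mGy, and SNHG16 made up 30.3% and 21.8%.

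**Figure D1:**
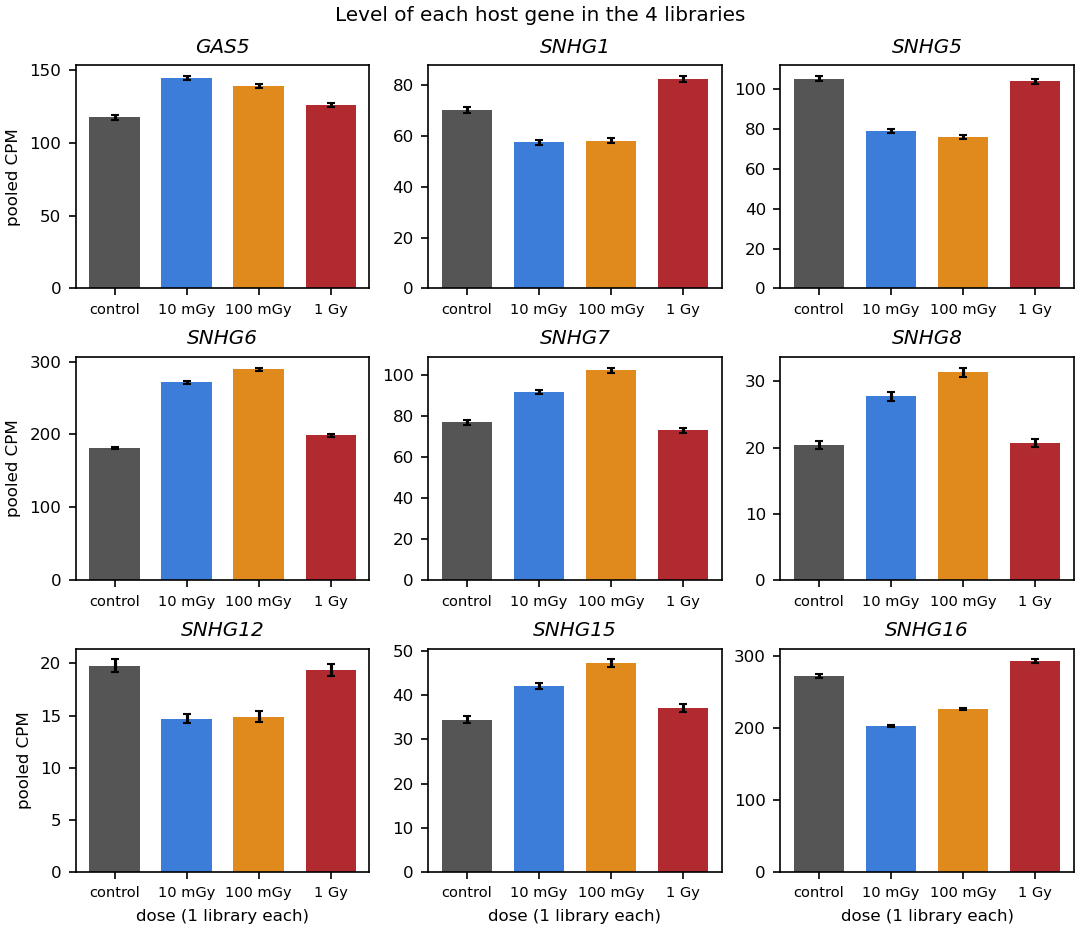
Pooled level in CPM (vertical axes start at 0 and differ between panels) of the 9 host genes in the control, 10 mGy, 100 mGy and 1 Gy libraries, 1 library per bar, with exact 95% counting intervals. SNHG6 rises from 181 CPM in the control to 271 and 290 CPM at the low doses and is at 199 CPM at 1 Gy, while SNHG16 goes from 272 to 203, 227 and 293 CPM. The relation of SNHG16 at 100 mGy to the control changes sign under median ratio scaling.

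The members fell into 5 genes that were higher at both low doses than in the control and at 1 Gy (20.7% of all genes measured had this order), and 4 genes that were lower at both low doses than in the other 2 libraries (67.6% of all genes). A difference was called when the ratio of pooled CPM was over 1.2 or under the inverse of 1.2. At 10 mGy against control, 4 members were called higher (SNHG6, SNHG8, GAS5, SNHG15), against 15.4% of the 8507 genes of at least 10 CPM. By summed exon length, that share was 56.7% under 1000 nt, where SNHG8 falls, and 60.6% from 1000 to 2000 nt, where SNHG6 falls. From 2000 to 4000 nt, where GAS5 and SNHG15 fall, it was 25%. At that dose 4 members were called lower (SNHG1, SNHG5, SNHG12, SNHG16), against 53% of all genes. The lower share was 27.7% from 2000 to 4000 nt, where SNHG1 and SNHG5 fall. From 4000 to 8000 nt, where SNHG12 and SNHG16 fall, it was 59.6%. At 100 mGy, 4 members were called higher (SNHG6, SNHG8, SNHG15, SNHG7), with a background of 14%, and the same 4 as before were called lower, with a background of 58.9%. At 1 Gy, 0 members were called in either direction, with backgrounds of 1.28% higher and 0.846% lower. All 3 comparisons share the control library, so they are not independent of each other.

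Most genes were lower in CPM at the low doses, and the members have to be read against that shift. The median ratio over all 8507 genes was 0.810 at 10 mGy and 0.766 at 100 mGy, and 1.01 at 1 Gy. The median over the members was 1.19 at both low doses and 1.07 at 1 Gy. When each library was scaled so that the median gene had a ratio of 1 (median ratio scaling), 5 members were called higher and 0 lower at 10 mGy, and again 5 and 0 at 100 mGy. The 4 lower members then lay close to the median gene. On the log2 scale, SNHG1 came to 0.014 and 0.11, SNHG5 to -0.11 and -0.09, SNHG12 to -0.13 and -0.02, and SNHG16 to -0.12 and 0.12, at 10 and 100 mGy in that order. SNHG1 at both doses and SNHG16 at 100 mGy thus changed sign. The lower group lay close to this median over genes of all lengths. The higher group stood above it by 0.56 to 0.88 at 10 mGy and 0.63 to 1.06 at 100 mGy, on the log2 scale. Scaled by all UMIs, the 10 mGy median from 2000 to 4000 nt of summed exon length was 0.978. SNHG1 (0.820) and SNHG5 (0.752) were below it, and GAS5 and SNHG15 above. From 4000 to 8000 nt it was 0.776, with SNHG12 (0.743) and SNHG16 (0.746) below and SNHG7 above. It was 1.30 under 1000 nt, beside 1.36 for SNHG8, and 1.28 from 1000 to 2000 nt, beside 1.498 for SNHG6.

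**Figure D2:**
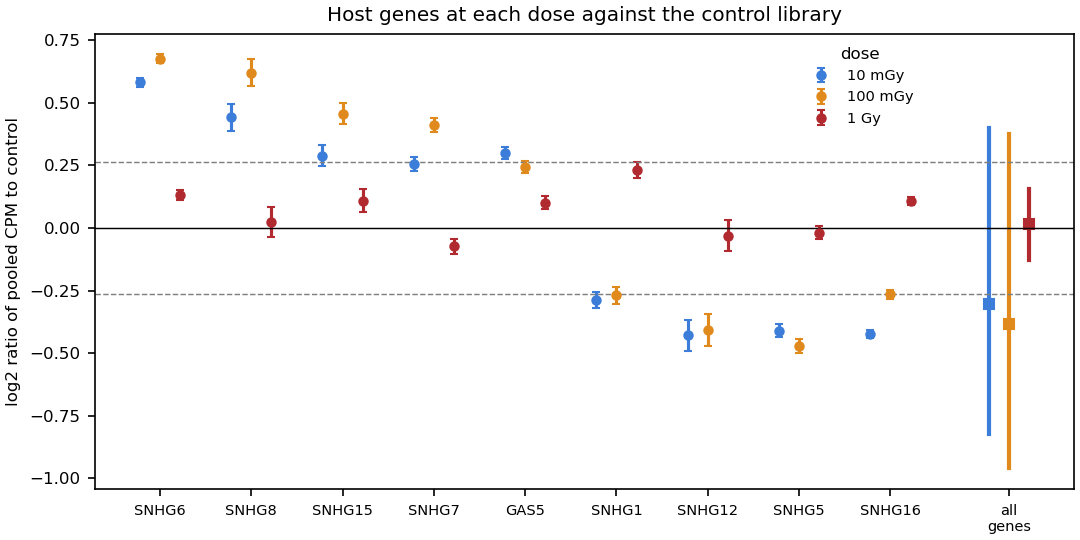
Log2 ratio of pooled CPM to the control for each host gene at 10 mGy, 100 mGy and 1 Gy, with 95% counting intervals, and dashed lines at 1.2-fold. The column for all genes gives the median (square) and the range from the 10th to the 90th percentile of the 8507 genes. At the low doses 5 hosts lie above 0 and 4 below it, and SNHG1 at both doses and SNHG16 at 100 mGy change sign under median ratio scaling.

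Among the higher members, SNHG6 and SNHG8 showed the largest ratios. SNHG6, the host of SNORD87, was at 181 CPM in the control library, and at 271, 290 and 199 CPM with 10 mGy, 100 mGy and 1 Gy. None of these intervals overlapped, and the ratios to control were 1.498 (95% counting interval 1.479 to 1.516), 1.598 (1.578 to 1.618) and 1.10 (1.08 to 1.11). SNHG8, the host of SNORA24 shown above, was at 20.4, 27.7, 31.4 and 20.7 CPM in the same order of doses. Its control and 1 Gy intervals overlapped, and its ratios were 1.36 (1.31 to 1.41) and 1.54 (1.48 to 1.597) at the low doses.

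The other higher members were GAS5, SNHG15 and SNHG7. GAS5 was at 117.6, 144.8, 139.4 and 126.2 CPM from the control to 1 Gy, with no overlap between neighbours. It was the one higher member with a higher level at 10 mGy than at 100 mGy, and its ratio crossed the threshold at 10 mGy (1.23) but not at 100 mGy (1.19, with an interval of 1.166 to 1.205). SNHG15, the host of SNORA9, was at 34.4, 42.1, 47.3 and 37.1 CPM, with ratios of 1.22 (1.187 to 1.258, across the threshold), 1.37 and 1.08. Its call at 10 mGy was lost with the mean over barcodes (0.14 on the log2 scale) and with thinning to 1500 UMIs (0.24). SNHG7, the host of SNORA17A and SNORA17B, was at 77.0, 91.9, 102 and 73.2 CPM. Its ratio of 1.19 (1.17 to 1.22) at 10 mGy lay across the threshold, and it was 1.33 at 100 mGy. SNHG7 was the one higher member that was lower at 1 Gy than in the control, at a ratio of 0.9501.

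The lower members were hosts of many and of few snoRNAs. SNHG5, the host of SNORD50A and SNORD50B, was at 105.4, 79.3, 76.1 and 104.1 CPM from the control to 1 Gy. The control and 1 Gy could not be told apart within counting error, and the low-dose ratios were 0.752 (0.738 to 0.766) and 0.722 (0.708 to 0.736). SNHG12, like GAS5 a host of both classes, was at 19.8, 14.7, 14.9 and 19.4 CPM. Its libraries formed 2 pairs, each with overlapping intervals, and its low-dose ratios were 0.743 and 0.753.

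SNHG16, the host of SNORD1A to SNORD1C, was at 272, 203, 227 and 293 CPM. Its ratio was 0.746 at 10 mGy and 0.832 at 100 mGy, the latter with an interval of 0.823 to 0.842 that includes the threshold. Its call at 100 mGy was lost under 5 other settings, including the mean over barcodes, leaving out the 5% of barcodes with most UMIs and scaling outside ribosomal protein and mitochondrially encoded genes (-0.26, -0.25 and -0.14 on the log2 scale). SNHG1, whose introns hold the SNORD25 to SNORD31 series and SNORD22, was at 70.1, 57.5, 58.2 and 82.4 CPM. Its 10 and 100 mGy intervals overlapped, the ratios to control were 0.820 (0.802 to 0.838) and 0.830 (0.811 to 0.849), and both intervals include the threshold. Its call at 100 mGy was lost under the same 3 settings (-0.26, -0.25 and -0.15) and its call at 10 mGy under the last of them (-0.20). SNHG1 also had the highest 1 Gy ratio of the 9 members, 1.175 (1.150 to 1.202), and its interval reached the threshold.

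Between the low doses, 0 members were called at 100 mGy against 10 mGy, with backgrounds of 1.35% higher and 12.7% lower. The ratios ran from 0.959 for SNHG5 to 1.13 for SNHG8. SNHG16, SNHG7, SNHG15 and SNHG8 were each 1.12 to 1.13 times as high at 100 mGy. When the 1 Gy library took the place of the control, an alternative chosen after the data were seen, 3 members were higher at 10 mGy (background 15.5%) and 4 lower (background 55.2%). At 100 mGy the counts were 4 higher (14%) and 4 lower (60.6%). At 10 mGy, GAS5 and SNHG15 were then within the threshold, with ratios of 1.15 and 1.13, and SNHG7 was past it, with 1.26.

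Over all genes the low-dose ratio went with gene length, so the members were placed by length. Exonic length, the merged length of all annotated exons, was taken from GENCODE 29 by gene identifier. In genes under 1000 nt the median ratio at 10 mGy was 1.30 (120 genes), from 1000 to 2000 nt it was 1.28 (606 genes), and it was 0.978 from 2000 to 4000 nt (2092 genes), 0.776 from 4000 to 8000 nt and 0.665 from 8000 nt up. The 2 shortest members, SNHG8 with 923 nt and SNHG6 with 1247 nt, had the highest ratios, and the longest, SNHG16 with 5362 nt, was in the lower group. Exonic length did not sort the rest. GAS5 (3631 nt) and SNHG15 (3647 nt) were higher, SNHG1 (3756 nt) was lower, and SNHG5, shorter than all 3 at 2806 nt, was lower as well. SNHG7 (4345 nt) was on the opposite side from SNHG12 (4266 nt). Exonic length merges all isoforms and exceeds the length of single transcripts. The median annotated transcript was 688 nt in GAS5, 842 nt in SNHG15, 748 nt in SNHG1 and 672 nt in SNHG5. It was 1473 nt in SNHG7 and 1090 nt in SNHG12. No annotated transcript was over 1698 nt in GAS5 or 1032 nt in SNHG5. Which isoform was counted is not known, so the placing by length is rough. SNHG7 and SNHG12 are annotated as antisense genes, and the use of strand in counting is not given in the sources used here.

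**Figure D3:**
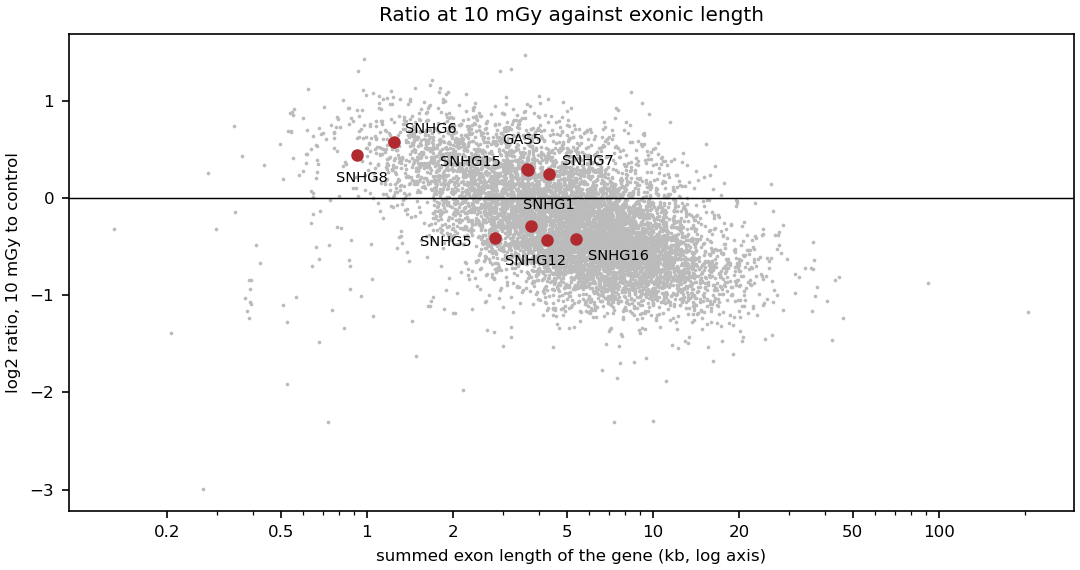
Log2 ratio of pooled CPM at 10 mGy to control against the summed exon length of the gene in kb (log axis), for all genes of at least 10 CPM (grey) and the 9 host genes (red). SNHG8 and SNHG6 lie among the short genes with ratios above 1. GAS5, SNHG15 and SNHG1 have almost the same summed exon length and lie on opposite sides of 0. SNHG1 is at 0.014 under median ratio scaling.

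The remaining host genes and the machinery around them were followed in gene lists. Of 22 other noncoding snoRNA hosts, 16 reached 10 CPM. At 10 mGy 5 of them were called higher and 5 lower (background 15.4% and 53%), with a median ratio of 1.06 against 0.810 over all genes. SNHG19 had the highest ratio, from 19.0 CPM in the control to 31.7 CPM (1.67), and SNHG26 the lowest, from 25.2 to 9.85 CPM (0.390). At 100 mGy the counts were 4 and 5 (background 14% and 58.9%), and at 1 Gy 2 were called higher (background 1.28%) and 0 lower (background 0.846%). The other hosts thus also lay on both sides of the control.

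Among 25 protein-coding hosts of snoRNAs, 11 were called higher and 9 lower at 10 mGy (background 15.4% and 53%), with a median ratio of 1.09 against 0.810 over all genes. RPL10, a ribosomal protein gene, had the highest ratio (1.79) and TNPO2, a nuclear import receptor, the lowest (0.551). Of 79 ribosomal protein genes, whose mRNAs have TOP starts, 74 were called higher and 0 lower at 10 mGy, with a median ratio of 1.47. Among 19 translation factors and related genes with TOP mRNAs, 9 were higher and 4 lower, beside the same background of 15.4% and 53%. EIF3K had the highest ratio there (1.93) and EIF4B the lowest (0.526). Scaled by all UMIs, the 9 noncoding hosts were thus divided where the ribosomal protein genes were not, and under median ratio scaling 5 of the 9 were higher and 4 within the threshold.

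The core proteins that bind snoRNAs lay on both sides of the control. NOP10, an H/ACA protein, went from 334 CPM in the control to 631 CPM at 10 mGy and 564 CPM at 100 mGy, with 310 CPM at 1 Gy. DKC1, the pseudouridine synthase of the same complex, went from 362 to 229 and 216 CPM, with 409 CPM at 1 Gy. Members of 1 complex thus stood on opposite sides of the control. They also differ in exonic length, with 554 nt for NOP10 and 4203 nt for DKC1. The median ratios of all genes in those length bins were 1.30 and 0.776 at 10 mGy. The part of length was not tested. NHP2 had ratios of 1.29 and 1.45 at 10 and 100 mGy, and GAR1 had 0.854 and 0.8603. In the C/D complex, SNU13 had ratios of 1.37 and 1.56, FBL, the methyltransferase, 1.13 and 1.11, NOP56 0.794 and 0.7997, and NOP58 0.802 and 0.937. At 10 mGy, NOP56, NOP58 and GAR1 lay near the median gene (0.810). In all, 3 of 8 were called higher and 3 lower at 10 mGy (background 15.4% and 53%). Of 10 snoRNP assembly factors 2 were higher (highest ratio ZNHIT3, 1.46) and 5 lower (lowest ratio NOLC1, 0.585), shares close to the background of 15.4% and 53%.

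Decay factors and other noncoding RNAs were set beside the hosts. Of 15 nonsense-mediated decay factors, 3 were called higher and 8 lower at 10 mGy, with a median ratio of 0.831, shares and a median close to those of all genes (15.4%, 53% and 0.810). MAGOH, of the exon junction complex, had the highest ratio (1.51), and SMG1, the kinase that phosphorylates UPF1, the lowest (0.377). The nuclear retained RNAs MALAT1 and NEAT1 were at ratios of 0.620 and 0.765 at 10 mGy and 0.588 and 0.5595 at 100 mGy, each below the median gene at its dose. Of 12 measured noncoding RNAs that host no snoRNA, 0 were called higher and 10 lower, with a median ratio of 0.586. CYTOR had the highest ratio of these (1.12) and MIR22HG the lowest (0.349). Their median exonic length was 11412 nt, against 3647 nt for the members.

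**Figure D4:**
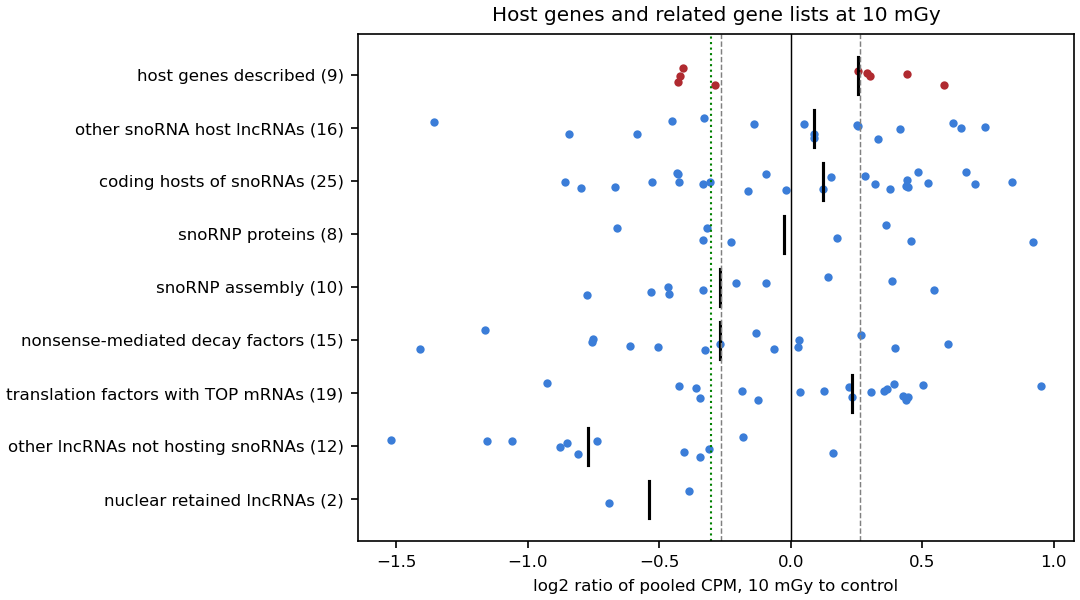
Log2 ratio of pooled CPM at 10 mGy to control for each measured gene (point) of the host genes and of 8 related lists, with the number of genes in parentheses, the list median (black bar), dashed lines at 1.2-fold and a dotted line at the median of all genes. The noncoding hosts, coding hosts and snoRNP proteins spread to both sides of 0, while 10 of 12 noncoding RNAs that host no snoRNA lie left of the lower dashed line. The 4 hosts left of that line are within the threshold under median ratio scaling.

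The non-member genes whose 3 ratios lay nearest to those of the summed members, among 1776 genes of at least 100 CPM, were HMGN2, NDUFB9, TMED9, PSMC3 and EMD. HMGN2, a nucleosome-binding protein, was nearest, with ratios of 1.04, 1.07 and 1.06 at 10 mGy, 100 mGy and 1 Gy, at a Euclidean distance of 0.03 on the log2 scale. The points share the control library.

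Comparisons inside a library do not rest on differences between libraries. In low-UMI barcodes against the others, SNHG7 was over 1.2-fold lower in 4 of 4 libraries, with ratios of 0.717 to 0.761, against a background of 4.34% of genes, and 0 members were higher in this way (background 2.66%). SNHG5, SNHG12, SNHG15 and SNHG16 were below 1 in 4 of 4 libraries and past the threshold in 3. SNHG8 was above 1 in 4 of 4, at 1.08 to 1.15. SNHG6 was at 0.980 to 1.18 and GAS5 at 0.985 to 1.09, both above 1 in 3 of 4, as was SNHG1 at 0.816 to 1.08. The interval of SNHG6 lay above 1 in each irradiated library, and that of GAS5 only in the control (1.005 to 1.185). The interval of SNHG1 excluded 1 only at 10 mGy, where it lay below 1 (0.757 to 0.879). Of the 5 members higher at low dose, 3 were thus near or above 1 in low-UMI barcodes, and SNHG7 and SNHG15 were below.

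Barcodes were also split by the share of UMIs from 14 G2/M marker genes, which mark cells before and in mitosis, without low-UMI barcodes. Between the 25% of barcodes with the highest and the 25% with the lowest share, 0 members were over 1.2-fold higher or lower in 4 of 4 libraries, against backgrounds of 6.74% and 6.17%. SNHG8 was lower in the top group in each library, with ratios of 0.753 to 0.840. SNHG12 was at 0.765 to 0.888 and SNHG15 at 0.834 to 0.943. SNHG16 was above 1 in 4 of 4 libraries, at 1.02 to 1.10, and so was SNHG7. The median UMI count was higher in the top than in the bottom group in every library, for example 25210 against 19122 in the control.

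Spread across single barcodes was taken as the variance over the mean after thinning each barcode to 5000 UMIs, where counting alone gives a value near 1. GAS5 gave 1.18, 1.31, 1.25 and 1.17 in the order control, 10 mGy, 100 mGy and 1 Gy, and SNHG12 gave 1.12, 1.10, 1.34 and 1.06. The other 7 members gave 0.995 to 1.11 in the 4 libraries, and members of low level are held near 1 by this measure. The values vary with the random draw, and a second draw gave 1.19 for SNHG12 in the control. Barcodes with at least 6 SNHG12 UMIs that were not low-UMI barcodes numbered 15 in unirradiated cells, then 6, 13 and 7 with rising dose. Without these 41 barcodes the value of GAS5 in the second draw went from 1.22, 1.30, 1.24 and 1.15 to 1.18, 1.24, 1.19 and 1.13.

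In these SNHG12-rich barcodes several other members were also high, and how many depended on the limit. The other barcodes they are set against leave out low-UMI barcodes as well. The barcodes were chosen by SNHG12 after its values had been seen, so its own level there (20 to 52 times that of the other barcodes) is no finding, and what follows is a description with no test. Barcodes just inside the limit, with 6 UMIs, numbered 2, 1, 1 and 2 in the order of dose, and those just outside, with 5 UMIs, numbered 8, 3, 4 and 3. The highest SNHG12 count in a barcode was 27 UMIs, at 100 mGy. Of the 8 other members, 6 were over 2-fold higher in 4 of 4 libraries, against a background of 3.23% of the 8507 genes. From 4 SNHG12 UMIs up, in 25 to 48 barcodes per library, the count was 2 (background 0.188%), and from 8 up it was 6 (background 3.62%). With at least 300 SNHG12 CPM and 3 SNHG12 UMIs it was also 6 (background 3.22%). A fixed UMI limit takes in barcodes more easily where depth is higher, as in the control. The CPM limit took 10, 8, 15 and 9 barcodes in the order of dose, where the limit of 6 UMIs took 15, 6, 13 and 7. In barcodes chosen by at least 20 GAS5 UMIs, 4 of the other 8 members passed (background 0.741%). These limits were also chosen after the data were seen.

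GAS5 was at 621, 1823, 1182 and 1081 CPM in the rich barcodes of the control, 10 mGy, 100 mGy and 1 Gy libraries, and at 116, 144, 138 and 126 CPM in the others. All 41 rich barcodes had at least 5 GAS5 UMIs, against 10.9% to 22.2% of the other barcodes. SNHG8 was at 107.6, 351, 342 and 187 CPM against 20.2, 27.4, 30.9 and 20.6 CPM, and 38 of the 41 had at least 2 of its UMIs. SNHG15 was 4.63 to 6.18 times as high, SNHG7 3.03 to 4.40 times, SNHG5 2.57 to 8.69 times and SNHG6 2.43 to 2.96 times. SNHG1, at 1.62 to 3.70, passed 2-fold in 3 of 4 libraries. SNHG16 passed 2-fold in 0 of 4, with ratios of 0.9503, 1.42, 1.27 and 0.721. The counts behind these levels were small, for example 22 to 85 SNHG8 UMIs per library.

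In depth the rich barcodes were above the others in 2 libraries and below in 2. Their median UMI counts were 24348, 16968, 17710 and 16136, against 21747, 19928, 15104 and 16429 in the others, and no rich barcode sequence was shared between libraries. They had more genes detected in each library, with medians of 6928, 5106.5, 5124 and 5781 against 5682, 4968, 4161 and 5019. Doublets were kept, and their part in this was not tested. Their median mitochondrially encoded share was 3.10% to 4.1998%, against 4.59% to 5.99% in the others. They made up 0.0476% to 0.168% of the barcodes that were not low-UMI barcodes. They held 0.221% to 4.42% of a member's UMIs over all barcodes of the control. Leaving them out changed the low-dose ratios by little, for example for SNHG12 from 0.743 to 0.763 at 10 mGy and for SNHG8 from 1.36 to 1.37.

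Some other noncoding hosts and several stress genes were high in the same barcodes. The genes named here, and the p53 and ATF4 lists, were chosen after their values were seen. Among the other noncoding hosts, EPB41L4A-AS1 was 7.48 to 11.8 times as high, SNHG32 6.57 to 9.46 times, SNHG11 3.51 to 5.38 times and ZFAS1 2.64 to 4.22 times. These were the 4 of 16 that passed 2-fold in every library, against a background of 3.23% of genes. The other 12 did not, among them SNHG3, at 0.584 to 1.02, and DANCR, at 0.387 to 1.58. SNHG4 and SNHG26 had ratios below 1 in 3 of 4 libraries, on counts too small to give a fold in most of them. SNHG4 had 20, 1, 2 and 1 UMIs in the rich barcodes of the control, 10 mGy, 100 mGy and 1 Gy libraries, and SNHG26 had 5, 0, 4 and 1. Among 25 coding hosts only TAF1D, a subunit of the factor that recruits RNA polymerase I, passed, at 4.29 to 9.92 times, and HSPA8 was over 2-fold lower in each library, at 0.222 to 0.497 times (background 0.223%). Of 15 nonsense-mediated decay factors only UPF3B passed, at 3.55 to 5.47 times. Of 10 snoRNP assembly factors NUFIP1 passed, at 2.47 to 3.04 times. Each of these 3 counts is a single gene, beside a background of 3.23%, and nothing is read from it about its list. None of the 8 snoRNP proteins and none of the 19 translation factors passed in 4 of 4 libraries.

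Of 19 measured p53 target genes, 14 were over 2-fold higher in 4 of 4 libraries, against the background of 3.23% of genes. The list was chosen after these values were seen, so the count is a description and no test of the list. CDKN1A, an inhibitor of cyclin-dependent kinases, was at 524, 1297, 438 and 1319 CPM in the rich barcodes and at 24.4 to 31.3 CPM in the others. MDM2, the ligase that degrades p53, was 11.7 to 38.8 times as high and FDXR 8.97 to 24.8 times. Of 11 measured genes of the ATF4 and stress response list 6 passed, among them ATF3 (10.3 to 15.7 times) and DDIT3 (8.79 to 23.8 times). ATF4 itself did not pass, at 1.35 to 1.496, and HSPA5 was below 1 in each library, at 0.343 to 0.668. The pattern was not the same in each rich barcode. At least 10 CDKN1A UMIs were present in 14 of the 41 and at least 5 MDM2 UMIs in 18 of the 41, against 0.346% to 0.415% and 0.408% to 2.76% of the others. By library, from the control to 1 Gy, these were 6 of 15, 3 of 6, 3 of 13 and 2 of 7 for CDKN1A. For MDM2 they were 8, 4, 3 and 3, so the high counts lay in few barcodes per library. The control library held SNHG12-rich barcodes as well as the irradiated ones. Neither the number of all rich barcodes nor their share was ordered by dose. The numbers of rich barcodes with such CDKN1A or MDM2 counts were highest in the control and fell or stayed level with rising dose. As shares of the rich barcodes they were not ordered by dose.

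**Figure D5:**
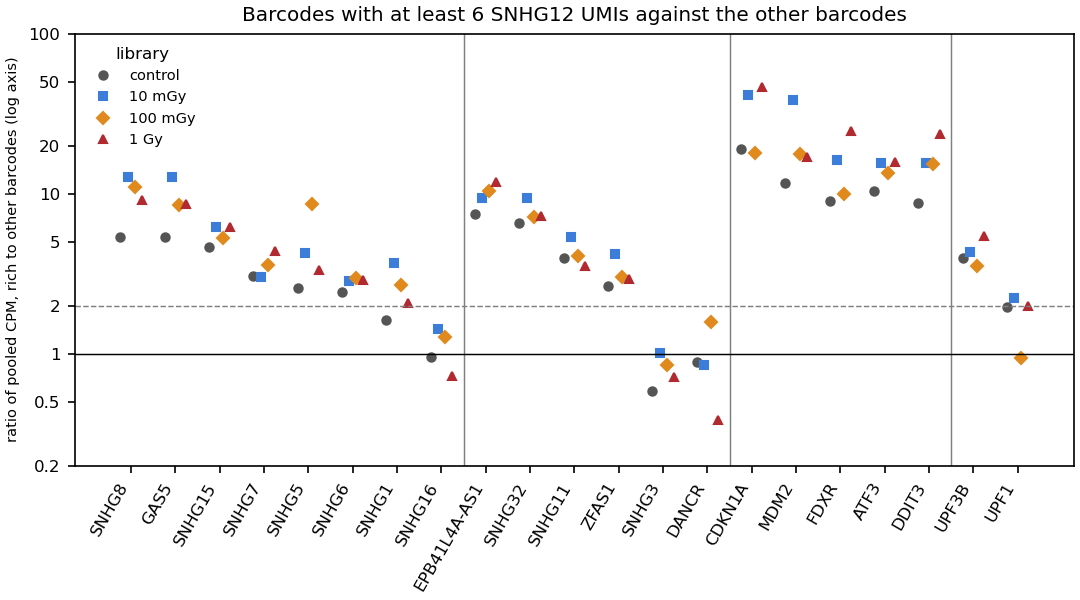
Ratio of pooled CPM in barcodes with at least 6 SNHG12 UMIs to that in the other barcodes (log axis), for each of the 4 libraries, with vertical lines between the other host genes described, further noncoding hosts, stress genes and decay factors, and a dashed line at 2-fold. GAS5 and SNHG8 lie at 5.34 or above in every library, whereas SNHG16 lies between 0.721 and 1.42. Low-UMI barcodes are left out on both sides.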

How the data were processed

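The authors deposited raw UMI counts per gene and barcode for 4 libraries, made with Cell Ranger 7.0.1 per the file headers. The submitters' processing notes also name STAR and GRCh37, with no role. Annotation, use of strand and whether introns were counted: not given in the sources used here. Members and lists were chosen with earlier results of these data known. All deposited barcodes were used, doublets were kept and no doublet caller was run. Pooled CPM and their ratios had exact 95% intervals (Poisson for a level, conditional binomial for a ratio). A call was a ratio past 1.2-fold, the fold of the study's methods, among genes of at least 10 CPM over the libraries. Named were all members, the highest and lowest ratio of each list at 10 mGy, all snoRNP proteins and nuclear retained RNAs, and the 5 genes most alike; genes of the SNHG12-rich barcodes were named after their values were seen. GENCODE 29 and RefSeq (GRCh38) were joined by gene identifier or symbol, and 99.9% of the genes had a length. The scripts, tested on simulated data, used Python 3.11.15, numpy 2.4.6, scipy 1.17.1 and pandas 2.3.3. Alternatives changed scaling, barcode selection, thinning depth, threshold, floor and reference library.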

Additional observations from a re-analysis of the deposited data

How the results depend on the processing

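No paired analysis was possible because each dose had 1 library, and for the same reason no library could be left out. Of the counts and ratios that answer a comparison, 76 values under other settings stayed within 1.5 times, and 13 moved. Of the members' own log2 ratios under other settings, 156 stayed within the counting interval, 111 moved outside it and 3 called ratios changed sign. Of their calls 20 were lost and 9 gained. Median ratio scaling took the members called lower at 10 mGy and at 100 mGy from 4 to 0, and the members below the control and 1 Gy at both low doses from 4 to 1. It turned SNHG1 to 0.014 (10 mGy) and 0.11 (100 mGy) and SNHG16 to 0.12 (100 mGy) on the log2 scale. A threshold of 1.5-fold left 0 higher and 0 lower at 10 mGy, and 2 higher and 0 lower at 100 mGy. The members called lower at 100 mGy were 2 with the mean over barcodes, 2 without the 5% of barcodes with most UMIs and 2 with scaling outside ribosomal protein and mitochondrially encoded genes. Thinning to 1500 UMIs gave 1 member higher at 1 Gy against control and 1 at 100 mGy against 10 mGy. Of 270 member values under other settings, 9 changed sign. Taking barcodes from 4 SNHG12 UMIs up, an alternative chosen after the data were seen, left 2 other members over 2-fold higher in 4 of 4 libraries in place of 6. Barcodes from 8 UMIs up gave 6, a limit of 300 CPM gave 6, and barcodes chosen by GAS5 gave 4. The cause of these changes was not tested. The depth leaves counting errors of a few percent per member, whereas the spread between libraries of 1 dose is unknown.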
